A study of Homo sapiens with 24 samples.

Results

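Fatty acid synthesis and desaturation in PPC1 prostate cancer cells was followed through 10 genes: FASN, SCD, ACACA, ACLY, ACSS2, ELOVL5, ELOVL6, FADS1, FADS2 and ME1. They were taken by symbol from the 48162 genes of the deposited count table. All 10 were found in 1 row each, and all 10 passed the filter on low counts in every comparison. PPC1 is a human prostate cancer cell line, and 24 libraries of its RNA were sequenced in 4 conditions of 6 libraries. Untreated parental cells (UT) received neither radiation nor drug and were harvested on day 5. Parental cells with LCL521 (UT_LCL) received 5 µM of this compound, a pro-drug that inhibits acid ceramidase (ASAH1), for 5 hours before harvest. Polyploid giant cancer cells (PGCC) came from cultures given a radiation dose of 8 Gy on the second day; they were harvested on day 5 and captured on a 20 micron filter. PGCC with LCL521 (PGCC_LCL) received both treatments and the same filtration. The labels describe no filtration of parental cells, so dose, filtration and cell size cannot be told apart in any comparison of PGCC with parental cells. All conditions came from 1 cell line, the experiment was done 6 times with its 4 conditions harvested in parallel, and the replicate numbers 1 to 6 are given in the labels.

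Fatty acids are built in the cytosol from acetyl-CoA. ATP citrate lyase makes that acetyl-CoA from citrate and acyl-CoA synthetase short chain family member 2 makes it from acetate, acetyl-CoA carboxylase turns it into malonyl-CoA, and fatty acid synthase joins the units into palmitate with NADPH, which malic enzyme is one source of. Elongases of the ELOVL family then lengthen the chains, and desaturases of the SCD and FADS families place double bonds in them. Many of these genes are known targets of the sterol regulatory element binding proteins (SREBP), and prostate cancers are known for active fatty acid synthesis.

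Between 14835246 and 19906601 reads were counted on genes per library. CPM is the usual scaling of a library's counts to a common total. A floor of 3 counts came to between 0.151 and 0.202 CPM. The floor was taken from library totals without the TMM scaling of the other CPM values, and it covers counting error only. Every member lay far above it, from 293 reads (ELOVL6, a UT_LCL library) to 19379 reads (FASN, a PGCC_LCL library). Of the epithelial markers KRT8, KRT18, KRT19, CDH1 and EPCAM, all but EPCAM were above 1 CPM in every condition. The prostate luminal markers KLK3, KLK2 and FOLH1 were at 0 CPM on average, and HOXB13 alone of 8 such markers was above 1 CPM. Of 5 adipocyte markers, LEP was at or near 0, PLIN1, FABP4 and CIDEC were above 1 CPM in all 4 conditions, and ADIPOQ had a mean of 1.12 CPM in UT and 0.205 CPM in PGCC. The summed level of the 5 was 784 to 1229 CPM in UT and 977 to 1471 CPM in PGCC. In the test of PGCC against UT described below, 4 adipocyte markers were tested, with 0 higher and 1 lower. Of all genes tested 23.1% were higher and 24.3% lower. With the replicate number as a block 2 were higher and 1 lower, beside 27.9% and 28.3% of all genes. In a principal component analysis, replicates 4 and 5 stood apart from replicates 1, 2, 3 and 6 in all 4 conditions along the second component (16.5% of the variance). The PGCC results below are therefore also given within these 2 sets of replicates.

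Start regions were available in RefSeq (GRCh38.p14) for 9 of the 10 genes, as 14 windows of the 250 bases before a listed start. FASN had none. The 4 stretches below were chosen by the results in PGCC: FADS2 and ACLY rose, and SCD and FADS1 did not pass the test. Whether the letters relate to these results was not tested. Each runs 5′ to 3′ on the strand of its gene and stops before the first GENCODE transcript start in its window. FADS2 has another window, 61815953 to 61816202, and the RefSeq start after it lies within the printed FADS2 stretch. The marked motif of FADS2 is thus downstream of that start. Capitals mark CCAAT, the core of the NF-Y site, and GGGCGG, the core of the Sp1 site, on either strand.
SCD (chr10:100346983-100347123, plus strand): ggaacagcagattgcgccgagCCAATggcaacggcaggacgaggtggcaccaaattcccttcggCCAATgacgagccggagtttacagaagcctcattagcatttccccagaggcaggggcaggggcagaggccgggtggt
ACLY (chr17:41919023-41919272, minus strand): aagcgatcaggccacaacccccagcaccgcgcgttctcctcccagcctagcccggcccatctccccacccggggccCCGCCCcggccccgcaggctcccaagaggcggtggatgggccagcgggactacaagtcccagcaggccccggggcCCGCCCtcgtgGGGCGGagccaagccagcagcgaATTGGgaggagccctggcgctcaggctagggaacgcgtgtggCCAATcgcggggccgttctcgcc
FADS1 (chr11:61817198-61817253, minus strand): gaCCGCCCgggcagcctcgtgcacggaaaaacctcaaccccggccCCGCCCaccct
FADS2 (chr11:61816154-61816255, plus strand): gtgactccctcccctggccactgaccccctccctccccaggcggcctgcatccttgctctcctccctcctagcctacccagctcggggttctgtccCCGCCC

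The printed stretch of SCD held 2 CCAAT motifs and no GGGCGG, that of ACLY held 2 and 3, and those of FADS1 and FADS2 held GGGCGG 2 times and once. The FADS2 window that is not printed held neither motif. Over the full 250 bases, CCAAT was found in 7 of the 14 windows (of ACACA, ACLY, ACSS2, ELOVL5 and SCD), and in 32.0% of 35116 start regions in the reference. GGGCGG was found in 11 of the 14 windows, of every gene but ELOVL5, and in 42.6% of all regions. Several genes have more than 1 window, and windows of a gene can overlap. The E-box CACGTG was found only at ELOVL5 (6.34% of all regions) and TGACNNNGC, a core of the antioxidant response element, only at ME1 (10.9%), each in 1 of the 14 windows. The exact letters of the sterol regulatory element searched were in 0 of the 14 windows and in 0.0342% of all regions. These are matches of letters in a short window. Both strands were searched, and no matches shared bases in the printed stretches.

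Levels can be compared between genes only per length, and they are given here as CPM per kilobase of the gene length in the table. In UT the order from high to low was SCD (84.0 ± 15.6 CPM per kb, SD, n = 6), ACLY (68.0 ± 10.998), FASN (64.1 ± 13.6), FADS2 (63.3 ± 17.6), ELOVL5 (53.0 ± 5.82), FADS1 (31.8 ± 5.09), ME1 (21.9 ± 4.06), ACSS2 (18.1 ± 3.32), ACACA (13.8 ± 2.53) and ELOVL6 (3.78 ± 0.797). Neighbours among the first 5 overlapped in their library values, as did neighbours from FADS1 to ACACA, so that clear steps lay only between ELOVL5 and FADS1 and between ACACA and ELOVL6. In PGCC the order at the top was FADS2 (106 ± 13.2 CPM per kb), FASN (92.1 ± 15.9), ACLY (89.2 ± 7.77), ELOVL5 (78.0 ± 6.64) and SCD (77.8 ± 8.83), again with overlap between neighbours. SCD thus stood at the top of the 10 genes in UT and below 4 of them in PGCC. The lowest gene was ELOVL6 in all 4 conditions, and it reached 5.51 ± 0.442 CPM per kb in PGCC. Together the 10 genes took 0.180% to 0.253% of the counted reads in UT, 0.215% to 0.262% in UT_LCL, 0.255% to 0.321% in PGCC and 0.279% to 0.374% in PGCC_LCL. The plot of CPM by library shows the level of each gene in all 24 libraries.

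**Figure D1:**
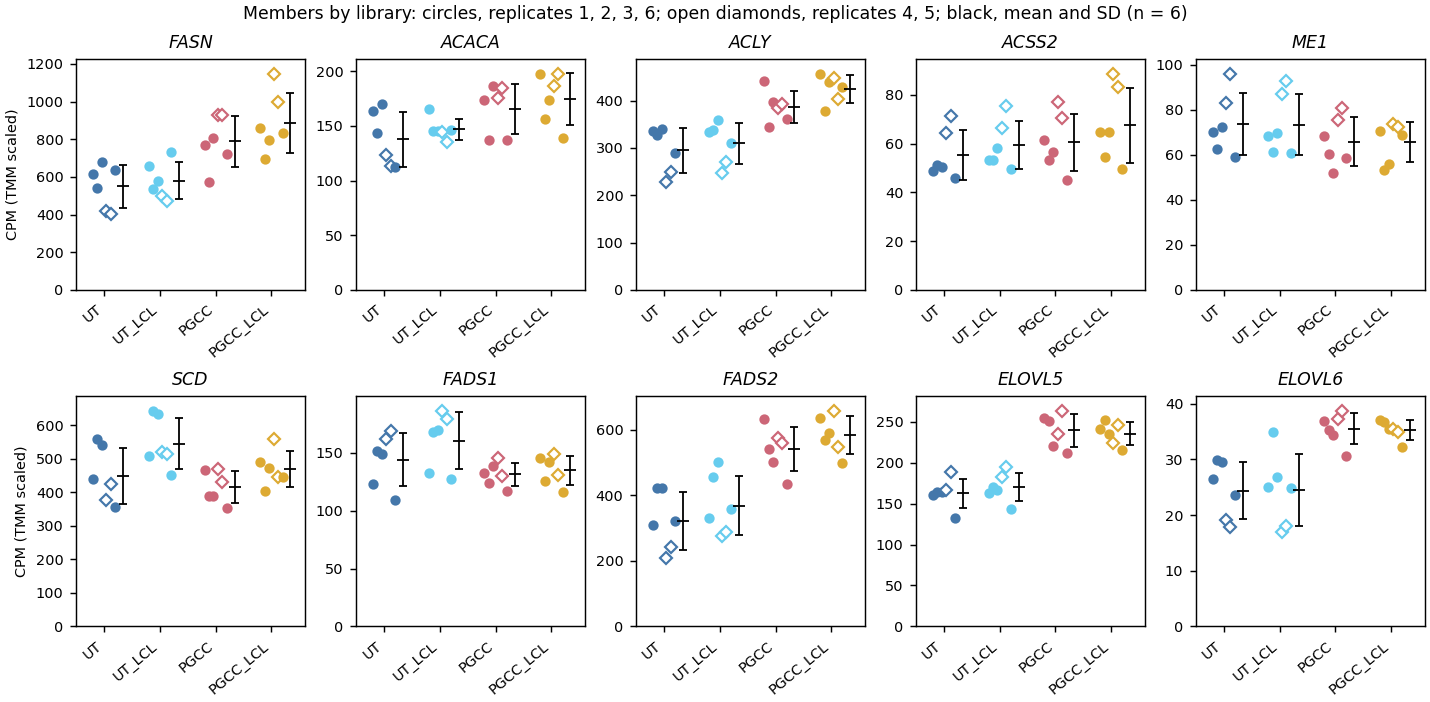
CPM (TMM scaled, y axis from 0) of the 10 genes in each library of the 4 conditions (x axis). Circles are replicates 1, 2, 3 and 6, open diamonds are replicates 4 and 5, and black bars are the mean and SD of 6 libraries. FADS2, ELOVL5, ELOVL6 and ACLY show no overlap between UT and PGCC, and in UT the open diamonds of FASN, FADS2, ELOVL6 and ACLY lie below the circles. The share of all genes without overlap is not given here.

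The first comparison asked how the 10 genes differed between PGCC and untreated parental cells. FADS2, ELOVL5, ELOVL6, FASN and ACLY were higher in PGCC by 1.32-fold (ACLY) to 1.69-fold (FADS2), none of the 10 was lower, and ACACA, ACSS2, SCD, FADS1 and ME1 did not pass the test. These 5 of 10 stand against 23.1% of the 13812 genes tested that were called higher, and 47.4% called in either direction (edgeR's quasi-likelihood test, Benjamini-Hochberg adjusted over all genes tested, threshold 0.05). The median log2 fold change was 0.34 over the 10 genes and -0.03 over all genes tested. In bulk RNA of this kind a lower or higher level could come from a different share of cells or from a different amount of RNA per cell, and these cannot be told apart. The summed level of 8 cycling markers also differed between the conditions, at 202 to 550 CPM in UT and 1157 to 1562 CPM in PGCC. Of 7 fibroblast markers, 4 were tested and 3 were higher in PGCC, with a summed level of 53.5 to 134 CPM in UT and 86.6 to 213 CPM in PGCC, and HOXB13 was lower (745 ± 112 CPM in UT, 428 ± 85.0 in PGCC). The part of these markers in the results was not tested.

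FASN encodes fatty acid synthase, the enzyme that makes palmitate. It had 403 CPM in the lowest, 576 in the median and 681 in the highest UT library, and 571, 788 and 931 CPM in PGCC. The ranges overlapped. Its log2 fold change was 0.53 (SE 0.15, adjusted p = 0.00857), and it was higher in 6 of 6 same-numbered pairs (exact permutation test over all divisions of the 12 libraries, two-sided, raw p = 0.013). The size rested on replicates 4 and 5. Same-numbered libraries of FASN differed by a mean of 0.21 (log2) over replicates 1, 2, 3 and 6, and by 1.18 over replicates 4 and 5. Without replicates 4 and 5 the fitted log2 fold change was 0.23, with adjusted p = 0.081 from edgeR, and 0.23 with adjusted p = 0.0024 when the replicate number was a block.

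ACLY, the ATP citrate lyase gene, had 229, 309 and 340 CPM (lowest, median, highest) in UT and 345, 389 and 442 CPM in PGCC, so all PGCC libraries lay above all UT libraries. Its log2 fold change was 0.40 (SE 0.10, edgeR adjusted p = 0.00552). The same-numbered differences averaged 0.25 in replicates 1, 2, 3 and 6 and 0.71 in replicates 4 and 5. ACACA, the cytosolic acetyl-CoA carboxylase gene, had 112 to 170 CPM in UT and 137 to 186 CPM in PGCC. Its log2 fold change of 0.27 (95% interval 0.01 to 0.54) did not pass (edgeR adjusted p = 0.0775). With the replicate number as a block it was 0.28 and passed (edgeR adjusted p = 0.0301), although without replicates 4 and 5 it was 0.12 without the block and 0.13 with it, with adjusted p = 0.444 and adjusted p = 0.102 from edgeR. With the block 6 of the 10 genes were thus called higher, against 27.9% of all genes called higher, 28.3% called lower and 56.2% called in either direction. ACLY also passed without replicates 4 and 5 (0.27, edgeR adjusted p = 0.0154).

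ACSS2, which makes acetyl-CoA from acetate, had 46.0 to 71.5 CPM in UT and 45.0 to 77.1 CPM in PGCC. Its log2 fold change was 0.13 with a 95% interval of -0.17 to 0.44 (edgeR adjusted p = 0.458). ME1, the cytosolic malic enzyme gene, had 58.8 to 95.8 CPM in UT and 51.7 to 80.7 CPM in PGCC, with a log2 fold change of -0.16 and an interval of -0.44 to 0.13 (edgeR adjusted p = 0.355). Same-numbered libraries of ME1 were lower in PGCC in 6 of 6 pairs, with log2 differences from -0.49 to -0.0029. The exact sign-change test gave a raw p = 0.0312, which is the smallest that 6 pairs allow. In these 2 genes the spread between replicate numbers was larger than the difference between the conditions, and replicates 4 and 5 were the highest libraries of both genes within each of the 4 conditions.

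SCD encodes stearoyl-CoA desaturase, which places the first double bond in saturated fatty acids. Its libraries had 357, 434 and 559 CPM (lowest, median, highest) in UT and 355, 410 and 471 CPM in PGCC. The PGCC range lay almost wholly within the UT range. The log2 fold change was -0.10 (95% interval -0.35 to 0.14, edgeR adjusted p = 0.474), and 3 of 6 same-numbered pairs were higher in PGCC. Over replicates 1, 2, 3 and 6 the paired log2 differences averaged -0.23, and over replicates 4 and 5 they averaged 0.17. When replicates 4 and 5 were left out and the replicate number was a block, the log2 fold change of SCD was -0.21 and passed (edgeR adjusted p = 0.0419), and without the block it was -0.23 and did not (adjusted p = 0.142).

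FADS2, the delta-6 desaturase gene of polyunsaturated fatty acid synthesis, had the largest fitted change of the 10 genes with all replicates, and without replicates 4 and 5 it had 0.53 and ELOVL5 0.61 on the log2 scale. FADS2 had 208, 315 and 423 CPM in UT and 434, 548 and 631 CPM in PGCC, with no overlap. The log2 fold change was 0.76 (SE 0.16, edgeR adjusted p = 0.00139). The paired log2 differences averaged 0.52 in replicates 1, 2, 3 and 6 and 1.33 in replicates 4 and 5. FADS1, the delta-5 desaturase gene beside it, had 110, 151 and 169 CPM in UT and 117, 132 and 146 CPM in PGCC. Its log2 fold change was -0.13 (95% interval -0.35 to 0.10, edgeR adjusted p = 0.344). The counts of this pair are uncertain: in the table's hg19 coordinates FADS1 (chromosome 11, 61567099 to 61596790, minus strand) lies wholly within the listed span of FADS2 (61560452 to 61634826, plus strand). FADS2 also shares 4265 bases with FEN1 on the same strand. FEN1, a flap endonuclease of DNA replication, was higher in PGCC as well (log2 fold change 0.84, edgeR adjusted p = 0.0237). How shared reads were assigned is not given in the sources used here, and the part of FEN1 reads in the FADS2 result was not tested.

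ELOVL5, the elongase of polyunsaturated chains, had 133, 164 and 189 CPM in UT and 212, 243 and 263 CPM in PGCC, with no overlap. Its log2 fold change was 0.56 (SE 0.09, edgeR adjusted p = 0.000112), and of the 5 genes that rose it varied least between the sets of replicates. The paired log2 differences were 0.60 on average in replicates 1, 2, 3 and 6 and 0.49 in replicates 4 and 5. ELOVL6, which lengthens palmitate towards stearate, had 17.8, 25.0 and 29.8 CPM in UT and 30.6, 36.1 and 38.7 CPM in PGCC, also with no overlap. The log2 fold change of ELOVL6 was 0.55 (SE 0.13, edgeR adjusted p = 0.00286), with paired means of 0.33 and 1.04 in the same 2 sets. Without replicates 4 and 5 it fell to 0.34 and still passed (edgeR adjusted p = 0.0114).

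**Figure D2:**
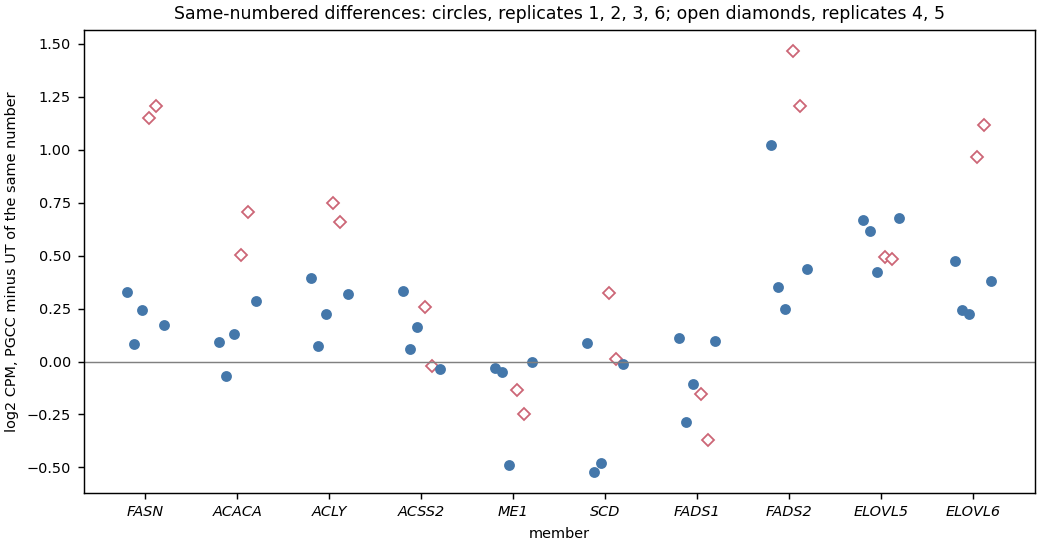
Difference in log2 CPM (y axis) between PGCC and UT libraries of the same replicate number, for each of the 10 genes (x axis). Circles are replicates 1, 2, 3 and 6 and open diamonds are replicates 4 and 5; for FASN the diamonds average 1.18 and the circles 0.21, while for ELOVL5 they average 0.49 and 0.60.

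The sets of replicates differed within the conditions themselves. In UT, replicates 4 and 5 had 403 and 419 CPM of FASN and the other replicates 540 to 681 CPM. In PGCC the order was turned, with 930 and 931 CPM in replicates 4 and 5 and 571 to 807 CPM in the others. FADS2 was low in replicates 4 and 5 of UT (208 and 242 CPM, others 310 to 423) and within the range of the others in PGCC. ACLY and ELOVL6 were likewise lowest in replicates 4 and 5 of UT, at 229 to 249 CPM and 17.8 to 19.0 CPM. FADS1 was highest there, at 162 to 169 CPM against 110 to 152 CPM. The summed cycling markers were 424 to 550 CPM in replicates 4 and 5 of UT and 202 to 378 CPM in the others. Their part in these differences was not tested.

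The second comparison of PGCC with parental cells was made under LCL521. FADS2, FASN, ELOVL6, ELOVL5, ACLY and ACACA were higher in PGCC_LCL than in UT_LCL by 1.21-fold (ACACA) to 1.61-fold (FADS2). These 6 of 10 genes stand against 25.0% of 13818 genes called higher, or 48.9% called in either direction, and none of the 10 was lower. FADS2 had 277, 344 and 500 CPM (lowest, median, highest) in UT_LCL and 498, 579 and 657 CPM in PGCC_LCL, with a log2 fold change of 0.69 (SE 0.14, edgeR adjusted p = 0.00101). The highest UT_LCL library of FADS2 lay just above the lowest PGCC_LCL library. FASN had 471, 557 and 734 CPM and 695, 845 and 1146 CPM in the same order, with a log2 fold change of 0.64 (SE 0.13, edgeR adjusted p = 0.00109). Only ACLY and ELOVL5 showed no overlap between the 2 conditions. The share of all genes without overlap is not given here, in this or the first comparison, so the lack of overlap is a description only.

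ELOVL6, ELOVL5 and ACLY had log2 fold changes of 0.56, 0.49 and 0.48 under LCL521, with adjusted p = 0.00532, 0.000144 and 0.000561 from edgeR. ACACA had 0.28 (edgeR adjusted p = 0.0183), and this fell to 0.18 without replicates 4 and 5 (adjusted p = 0.153). Leaving out UT_LCL replicate 6 alone also ended the ACACA call (edgeR adjusted p = 0.0536). ACSS2 had 0.21 and did not pass (edgeR adjusted p = 0.263), but passed with the replicate number as a block (0.20, adjusted p = 0.0397), which made 7 of 10 against 29.5% of all genes called higher, 26.8% called lower and 56.3% called in either direction. That ACSS2 call was kept in 1 of the 6 blocked fits that left out a replicate number, and without replicates 4 and 5 ACSS2 had 0.15 with the block (edgeR adjusted p = 0.128). For the remaining genes the log2 fold changes were -0.14 for ME1 (adjusted p = 0.396), -0.19 for SCD (adjusted p = 0.131) and -0.23 for FADS1 (adjusted p = 0.0916), all from edgeR. Their intervals were -0.41 to 0.14, -0.41 to 0.02 and -0.46 to 0.00088. FADS1 was lower in PGCC_LCL in 5 of 6 same-numbered pairs, and SCD likewise in 5 of 6. FADS1 was called lower in 5 of 32 alternatives (smallest edgeR adjusted p = 0.0094) and SCD in 1 of 32 (adjusted p = 0.0331). The sets of replicates differed here as well. The paired log2 differences of FASN averaged 0.35 in replicates 1, 2, 3 and 6 and 1.14 in replicates 4 and 5, and those of FADS2 averaged 0.49 and 1.09.

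**Figure D3:**
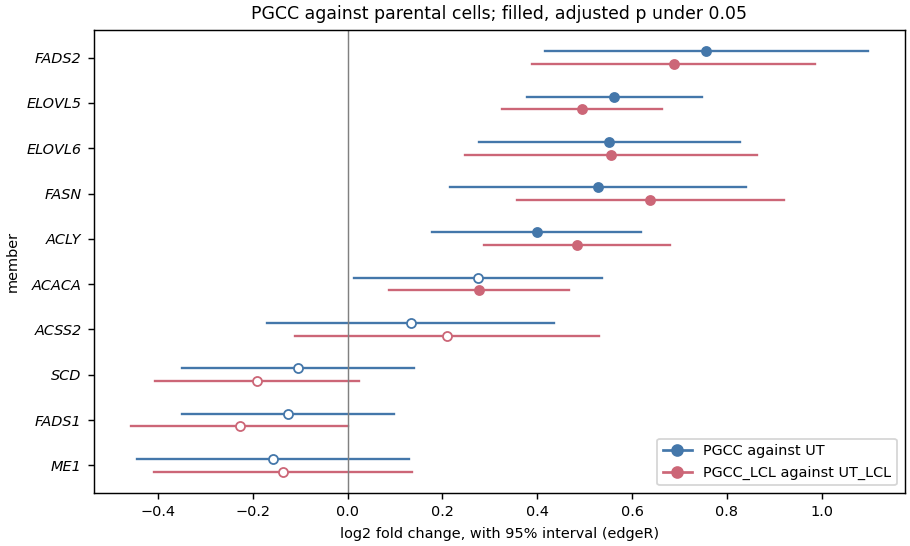
Log2 fold change with its 95% interval (x axis, edgeR) for each of the 10 genes (y axis) in PGCC against UT (blue) and PGCC_LCL against UT_LCL (red), each fitted on 12 libraries. Filled points have an adjusted p under 0.05: 5 genes in the first comparison and 6 in the second, all above 0.

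The remaining comparisons asked what a 5-hour exposure to LCL521 did within each population. Without a block, none of the 10 genes passed in either population. The libraries of a population with and without the drug overlapped for all 10 genes. In parental cells 0 of 13277 genes passed in edgeR (0.00%), with 71 genes at an unadjusted p under 0.05, and DESeq2 and limma-voom also called 0. In PGCC 1 of 14151 genes passed in edgeR (0.00707%), which was INSIG1 and no member. DESeq2 called 6 genes and limma-voom 0. Same-numbered libraries with and without LCL521 deviated together, so the numbers were also fitted as a block. That fit called 115 genes in parental cells (0.866% of those tested, 0.520% higher and 0.346% lower) and 234 in PGCC (1.65% of those tested, 1.08% higher and 0.572% lower). Among the 10 genes, 3 passed with the block in parental cells and 3 in PGCC, all of them higher with LCL521. The median log2 fold change of the 10 genes with the block was 0.10 in both populations, against 0.0010 over all genes tested in parental cells and -0.0013 in PGCC.

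SCD was the member that passed with the block in both populations. It had 357, 434 and 559 CPM in UT and 453, 518 and 644 CPM in UT_LCL, a rise in 6 of 6 same-numbered pairs of 0.20 to 0.47 on the log2 scale. The log2 fold change was 0.29 with and without the block (SE 0.04, edgeR adjusted p = 0.00689 with the block, and SE 0.12 and adjusted p = 1 without it). In PGCC it had 355, 410 and 471 CPM without and 403, 459 and 559 CPM with LCL521, again higher in 6 of 6 pairs, by 0.05 to 0.33. There the log2 fold change was 0.17 with the block (SE 0.04, edgeR adjusted p = 0.0137) and 0.17 without it (adjusted p = 1). With the block, SCD passed whichever replicate number was left out. Without replicates 4 and 5 it passed with the block in PGCC (0.18, edgeR adjusted p = 0.0352) and not in parental cells (0.26, adjusted p = 0.11).

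In parental cells the other members that passed with the block were the FADS genes. FADS2 had 208, 315 and 423 CPM in UT and 277, 344 and 500 CPM in UT_LCL, with a log2 fold change of 0.22 (SE 0.04, edgeR adjusted p = 0.0204 with the block). FADS1 had 110, 151 and 169 CPM in UT and 128, 169 and 186 CPM in UT_LCL, with 0.17 (SE 0.04, edgeR adjusted p = 0.0388 with the block). Both were higher in 6 of 6 same-numbered pairs. ACSS2 and ELOVL5 were also higher in 6 of 6 pairs and did not pass, with 0.11 (edgeR adjusted p = 0.3) and 0.07 (adjusted p = 0.395) with the block. FASN had 0.10 with the block (edgeR adjusted p = 0.503) and was higher in 4 of 6 pairs. FADS1 lost its call in each of the 6 fits that left out 1 replicate number with the block, and FADS2 kept it in 3 of 6.

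In PGCC the other members that passed with the block were FASN and ACLY. FASN had 571, 788 and 931 CPM in PGCC and 695, 845 and 1146 CPM in PGCC_LCL, with a log2 fold change of 0.17 (SE 0.04, edgeR adjusted p = 0.0132 with the block) and a rise in 5 of 6 pairs. ACLY had 345, 389 and 442 CPM in PGCC and 378, 434 and 456 CPM in PGCC_LCL, with 0.14 (SE 0.03, edgeR adjusted p = 0.0284 with the block) and a rise in 6 of 6 pairs. Each kept its call in 4 of the 6 fits that left out 1 replicate number, and without replicates 4 and 5 they had 0.15 and 0.14 (edgeR adjusted p = 0.0694 and 0.0764 with the block). ACSS2 had 0.15 (adjusted p = 0.061), FADS2 0.12 (adjusted p = 0.104), ACACA 0.08 (adjusted p = 0.335) and FADS1 0.04 (adjusted p = 0.659) in the same blocked edgeR fit. ACACA, ELOVL5, ELOVL6 and ME1 did not pass in either population under any setting tried. The same held for ACLY, ACSS2 and FASN in parental cells and for FADS1 and FADS2 in PGCC.

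**Figure D4:**
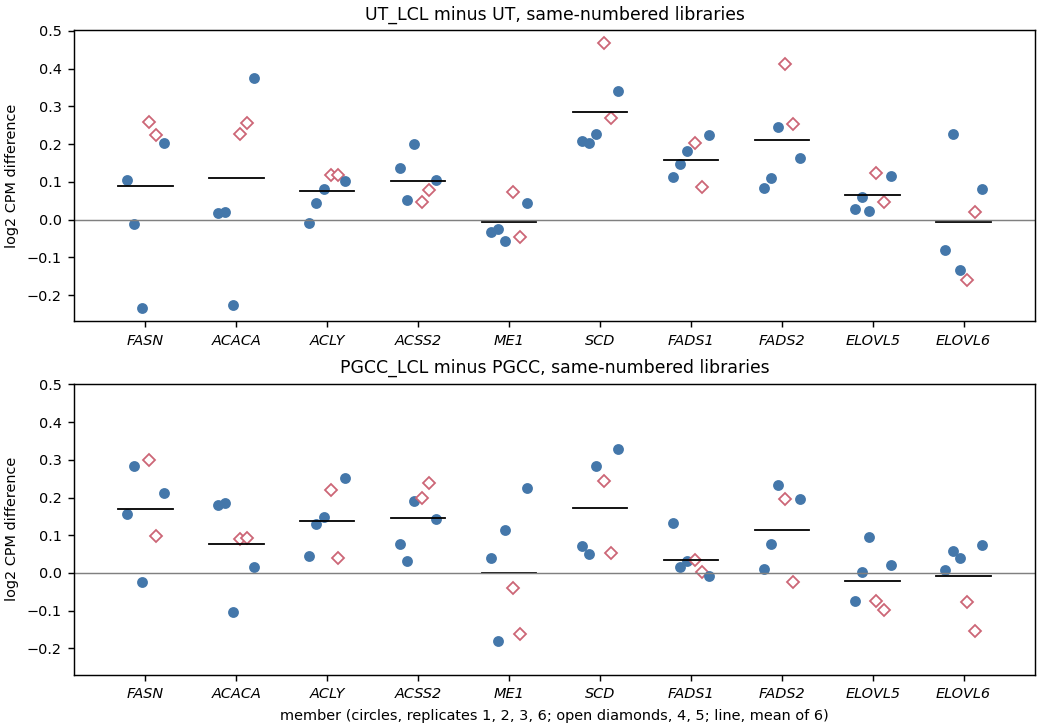
Difference in log2 CPM (y axis) between libraries of the same replicate number with and without LCL521, for each of the 10 genes (x axis), in parental cells (top) and PGCC (bottom). Circles are replicates 1, 2, 3 and 6, open diamonds replicates 4 and 5, and the line is the mean of 6; the 6 points of SCD are above 0 in both panels, with means of 0.29 and 0.17.

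Whether the LCL521 effect differed between PGCC and parental cells was tested as an interaction on all 24 libraries. None of the 10 genes passed, and 0 of 14555 genes passed in edgeR, with 60 at an unadjusted p under 0.05, and 0 in DESeq2 and limma-voom. Subtracting the parental response from the PGCC response gave -0.12 for FADS1 (95% interval -0.43 to 0.19) and -0.11 for SCD (-0.44 to 0.22) on the log2 scale. With a block for the replicate number within each population, an alternative chosen after seeing the data, these were -0.12 (-0.22 to -0.02) and -0.11 (-0.24 to 0.01), with adjusted p = 1 for both genes in edgeR. A difference between the populations in the response of any member was thus not detectable here, and the sets of members that passed in each population are not shown to differ.

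Ratios of 2 members within a library do not depend on the scaling between libraries, and 3 were fixed: SCD to FASN, FADS2 to FADS1 and ELOVL6 to ELOVL5. They were tested in 4 comparisons with two-sided exact permutation tests, adjusted over the 12 results. There were 0.560, 0.848 and 1.06 reads of SCD for each read of FASN in UT (lowest, median, highest), and 0.462, 0.50002 and 0.682 in PGCC. The mean log2 ratio was 0.63 lower in PGCC, a difference of -0.63 (exact p = 0.00866, adjusted p = 0.026), and it was lower in all 6 pairs. It averaged -0.44 in replicates 1, 2, 3 and 6, where it did not pass (exact p = 0.114), and -1.01 in replicates 4 and 5. Under LCL521 the difference between the populations was -0.82 (exact p = 0.00216, adjusted p = 0.00866). LCL521 itself gave a difference of 0.20 in parental cells (exact p = 0.355, adjusted p = 0.71), where the ratio rose in 6 of 6 pairs (exact sign-change p = 0.0312), and 0.00 in PGCC (exact p = 0.994, adjusted p = 0.994).

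For FADS2 to FADS1 there were 1.28, 2.66 and 2.93 reads per read in UT and 3.61, 4.11 and 4.75 in PGCC, with no overlap. The counts of both genes are uncertain, because FADS1 lies within the listed span of FADS2 and FADS2 shares bases with FEN1. The part of shared reads in this ratio was not tested. The difference in mean log2 ratio was 0.91 (exact p = 0.00216, adjusted p = 0.00866), and 0.93 between PGCC_LCL and UT_LCL with the same p-values. Replicates 1, 2, 3 and 6 gave 0.56 and replicates 4 and 5 gave 1.60. No difference passed under LCL521, at 0.05 in parental cells (exact p = 0.751, adjusted p = 0.901) and 0.08 in PGCC (exact p = 0.24, adjusted p = 0.577).

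The ratio of ELOVL6 to ELOVL5 was 0.0946, 0.171 and 0.182 in UT and 0.140, 0.146 and 0.159 in PGCC. The difference in mean log2 ratio was 0.01 (exact p = 0.968, adjusted p = 0.994). This mean covers opposite directions in the sets of replicates, with -0.27 in replicates 1, 2, 3 and 6 and 0.56 in replicates 4 and 5. Under LCL521 the same comparison gave 0.10 (exact p = 0.602), with -0.20 and 0.68 in the 2 sets. The LCL521 differences were -0.07 in parental cells (exact p = 0.71) and 0.01 in PGCC (exact p = 0.719).

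**Figure D5:**
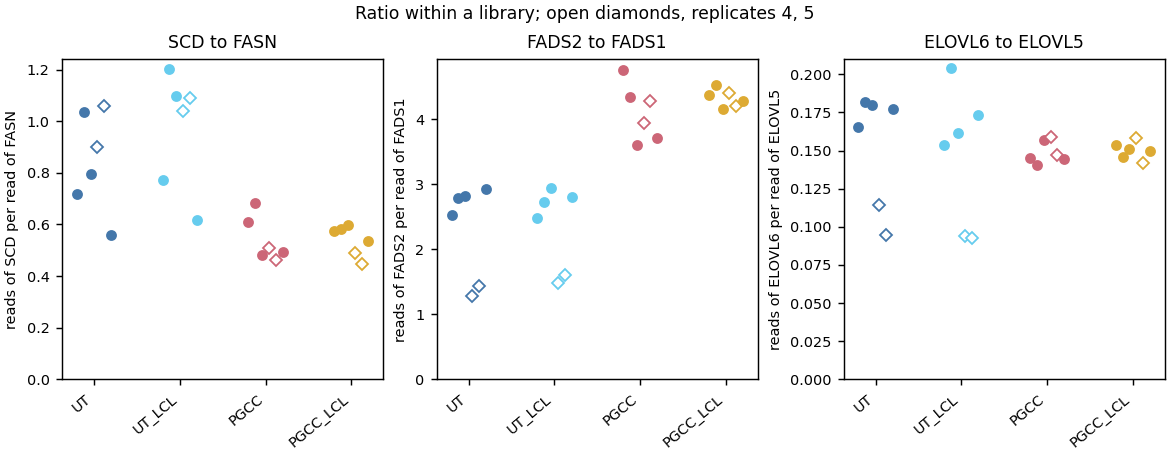
Reads of one member per read of another within each library (y axes from 0) in the 4 conditions (x axes). Circles are replicates 1, 2, 3 and 6 and open diamonds replicates 4 and 5; the FADS2 to FADS1 ratio lies between 1.28 and 2.93 in UT and between 3.61 and 4.75 in PGCC. The counts of FADS2 and FADS1 are uncertain, because their listed spans overlap.

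Within conditions, members also varied together. Over the deviations of 24 libraries from their condition means (a description, in which the libraries share replicate numbers and scaling), ELOVL6 and FADS2 had the highest Pearson correlation of the 45 pairs of members (0.87), followed by ACLY with FADS2 (0.83), ACLY with ELOVL6 (0.81) and ACSS2 with ME1 (0.77). The lowest were ELOVL6 with ME1 and FASN with ELOVL5, both at -0.52. These deviations keep the difference between the sets of replicates. In UT, replicates 4 and 5 minus the others gave log2 differences of -0.56 (ELOVL6), -0.70 (FADS2), -0.44 (ACLY), 0.47 (ACSS2) and 0.44 (ME1). In PGCC the same differences were 0.15, 0.12, 0.02, 0.45 and 0.39. The part of this split in the correlations was not tested. Of 14554 other genes, those most like FASN by this measure were SMAD9 (0.91), PARD6G (0.90), CASP2 (0.87), HSPG2 (0.87) and MUC5AC (0.85). Those most like SCD were MMAB (0.88), F2R (0.86), RSRC1 (0.84), B3GALNT1 (0.79) and SLC35B4 (0.77). No member was among either group of 5.

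SREBP are made as membrane precursors, escorted by SCAP, held back by INSIG proteins when sterols are plentiful, and cut by the proteases of MBTPS1 and MBTPS2. Of 8 genes of this control, 2 rose and 3 fell between UT and PGCC, shares near those of all genes tested (23.1% higher and 24.3% lower). INSIG1 rose from 36.3 ± 7.34 to 60.4 ± 5.69 CPM (SD, n = 6), with a log2 fold change of 0.74 (edgeR adjusted p = 0.000263). SCAP, MBTPS1 and MBTPS2 had log2 fold changes of -0.31, -0.26 and -0.63 (adjusted p = 0.00118, 0.021 and 0.0163, edgeR). SREBF1, which encodes the SREBP best known for fatty acid genes, had -0.44 and did not pass (edgeR adjusted p = 0.0611). It passed with the replicate block (-0.43, adjusted p = 0.000171) and without replicates 4 and 5. SREBF2 and INSIG2 had -0.23 and 0.23 and did not pass (edgeR adjusted p = 0.208 and 0.194). MBTPS1 lost its call with library totals as the scaling and without replicates 4 and 5.

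With LCL521, INSIG1 rose in PGCC from 60.4 ± 5.69 to 95.8 ± 12.5 CPM (log2 fold change 0.67, edgeR adjusted p = 0.0395). This call was lost in 13 of 32 alternatives, among them most fits that left out 1 library and the fit without replicates 4 and 5. In parental cells INSIG1 had 36.3 ± 7.34 CPM without and 61.5 ± 15.5 CPM with LCL521 (log2 fold change 0.76, edgeR adjusted p = 0.00065 with the block and 1 without it). Of 18 sterol synthesis genes, 11 were higher in PGCC than in UT, among them IDI1 (1.16, edgeR adjusted p = 4.58e-05), and 0 were lower, beside 23.1% and 24.3% of all genes. With the block 12 were higher and 1 was lower, beside 27.9% and 28.3% of all genes. None of the 18 passed under LCL521 without the block. With it 9 were higher in parental cells and 12 in PGCC, and none was lower. Of all genes tested in those blocked fits, 0.520% were higher in parental cells and 1.08% in PGCC.

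Genes of 7 other lists around fatty acid metabolism were called in both directions between UT and PGCC (edgeR, log2 fold changes in parentheses). Of all genes tested 23.1% were higher and 24.3% lower, and many of the counts that follow are near those shares, so they are given as a description. Of 10 tested genes of 15 in a list of other elongation and desaturation genes, 4 rose, led by the desaturase SCD5 (1.10) and the elongase ELOVL4 (1.04), and 2 fell, PTPLB (-0.76) and ELOVL1 (-0.42). The list of carboxylase partners and mitochondrial fatty acid synthesis had 9 tested genes of 11, of which 2 rose, ACACB (0.61) and CBR4 (0.58), and 6 fell, led by MLYCD (-1.14), the malonyl-CoA decarboxylase, and MECR (-0.67). The list named for supply of citrate and NADPH had 13 tested genes of 14. It also holds ACAT2, a cytosolic thiolase that supplies neither. In this list 6 rose, led by the mitochondrial isocitrate dehydrogenase IDH2 (1.72) and by ACAT2 (1.21). Another 3 fell, led by the cytosolic isocitrate dehydrogenase IDH1 (-0.57) and PGLS (-0.54). Acyl-CoA synthetases and binding proteins had 13 tested of 16, with 5 higher, among them ACSL5 (1.43) and SLC27A3 (0.84), and 2 lower, SLC27A4 (-0.91) and ACSL3 (-0.23). ACSL5 had 0.0545 to 0.761 CPM in UT, down to below the floor of 3 counts, and 0.446 to 1.12 CPM in PGCC, so its fold is uncertain.

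Glycerolipid synthesis and droplet genes split evenly, with 6 of 17 tested higher, led by LPCAT1 (1.10) and LPIN1 (1.05), and 5 lower, led by GPAM (-0.57) and AGPAT5 (-0.54). Among 20 tested genes of fatty acid oxidation, 5 were higher, among them CPT1C (1.87, with 0.174 to 0.554 CPM in UT, near the floor, and 0.606 to 1.95 CPM in PGCC, so that its fold is uncertain) and ECI2 (0.55), and 2 lower, ECI1 (-0.96) and CPT1A (-0.53), the latter the liver-type carnitine palmitoyltransferase that admits fatty acids to mitochondria. Of 15 tested regulators other than SREBP, NR1H3, which encodes the liver X receptor alpha, was the one that rose (1.06), and 6 fell, led by its partner RXRA (-0.88) and the AMPK subunit PRKAB1 (-0.65). The calls of ACSL3, SLC27A3, CBR4 and ACSL5 were lost under some alternatives, in 13 of 32, 10 of 32, 6 of 32 and 3 of 31. Under LCL521 no gene of these 7 lists passed in either population without the block. With the block, 1 of 13 tested citrate and NADPH supply genes was higher in each population. Of 17 tested glycerolipid and droplet genes, 1 was higher in parental cells and 2 in PGCC. No gene of the remaining lists passed, and none was lower. Of all genes tested with the block, 0.520% were higher in parental cells and 1.08% in PGCC.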

How the data were processed

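The deposited counts are whole numbers of reads per gene, not normalized by the authors. Per the labels and the study's methods, reads were aligned with STAR to hg19 and counted with HTSeq (the submitters' processing notes also name CASAVA and DESeq2). The annotation release and whether counting used strand are not given in the sources used here, so overlapping genes are uncertain. The table also gives gene symbol, length and coordinates, and no per-sample column was left out. The table's coordinates are hg19, and start regions are RefSeq on GRCh38.p14, used for their letters and their own coordinates only.

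The models were run in edgeR 4.0.16 under R 4.3.3, and the alternatives also in DESeq2 1.42.0 and limma 3.58.1. For each comparison the 12 libraries of its conditions were fitted (24 for the interaction): filterByExpr (minimum count 10, minimum total 15), TMM scaling, edgeR's quasi-likelihood test, Benjamini-Hochberg adjustment over all genes tested, threshold 0.05, no minimum fold. CPM are TMM-scaled, and log2 CPM of same-numbered differences and permutation tests were computed with 2 as the prior count. All intervals printed are 95% intervals. Single-gene permutation p-values are not adjusted. Group and replicate number came from the sample titles. Same-numbered libraries deviated together across genes in all 6 pairs of every comparison, with correlations of 0.237 to 0.412 (PGCC and UT), 0.458 to 0.813 (parental cells with and without LCL521), 0.385 to 0.619 (PGCC with and without) and 0.171 to 0.444 (PGCC_LCL and UT_LCL). A library correlated best with its own number in 5, 6, 6 and 3 of 6 pairs, in the same order. The labels describe experiments with parallel harvests, and the numbers were taken to pair the libraries. The study's methods name no block, so the main fits have none and blocked fits are an alternative.

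Genes named were all members, 8 SREBP control genes, the 2 largest rises and falls past the threshold of each other list, the 5 genes most like FASN and SCD, and FEN1 for its overlap. Some genes that this rule names are not reported here. The members and lists were chosen with earlier results of these data known. Alternatives were RLE, upper quartile and library-total scaling, no filter, 10 counts in every library, DESeq2, limma-voom, one fit of all libraries, the block, a length correction, leaving out replicates 4 and 5, and leaving out each library or replicate number. The procedure was also run on simulated counts that held no split of replicates 4 and 5, and the outcome is not given here.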

Additional observations from a re-analysis of the deposited data

Results flagged for a closer look

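ACACA in UT_LCL replicate 1 had 165 CPM, and the other 5 libraries of that condition lay between 135 and 146 CPM, so its distance to the nearest of the others exceeded Dixon's 95% critical value for 6 samples. This was the only 1 of 40 groups (10 genes in 4 conditions) past that limit, and chance flags about 1 group in 20. Without this library ACACA stayed past the threshold in PGCC_LCL against UT_LCL.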

How the results depend on the processing

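Between PGCC and UT, FADS2, ELOVL5, ELOVL6 and ACLY passed under all 32 alternatives and FASN under 31, and no member changed direction; under LCL521 the 5 genes passed under all 32. Library totals moved the median of all genes from -0.03 to 0.07 and the split to 3820 higher and 2521 lower. The number of genes past the threshold in UT_LCL against UT was 0, and 115 with the replicate block, 168 with the block in DESeq2, 219 with the block and a length correction, 3 with the block without replicates 4 and 5, and 0 to 112 when 1 library or number was left out. In PGCC_LCL against PGCC it was 1, and 6 in DESeq2, 0 in limma-voom, 0 in one fit of all 24 libraries, 234 with the block, 193 with the block in DESeq2, 256 with the block and a length correction, 0 without replicates 4 and 5 (129 with the block), and 0 to 339 when 1 was left out. The cause of these differences was not tested.

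Without replicates 4 and 5 the log2 ratio differences were -0.44 for SCD to FASN between PGCC and UT (exact permutation p = 0.114), -0.015 for FADS2 to FADS1 between UT_LCL and UT, and, for ELOVL6 to ELOVL5, -0.27 between PGCC and UT (exact p = 0.0286) and -0.20 under LCL521 (exact p = 0.0571). For SCD to FASN between UT_LCL and UT, the sign-change test over pairs, the replicate block for a ratio, gave 0.20 (exact p = 0.0312). Leaving out 1 library or number moved FASN in UT_LCL against UT from -0.0073 to 0.16. It moved ELOVL6 to ELOVL5 from -0.12 to 0.069 (PGCC and UT), -0.0031 to 0.032 (PGCC_LCL and PGCC), -0.023 to 0.20 (PGCC_LCL and UT_LCL) and -0.20 to 0.045 (UT_LCL and UT). FADS2 to FADS1 ranged from 0.044 to 0.12 (PGCC_LCL and PGCC) and -0.10 to 0.17 (UT_LCL and UT), and SCD to FASN from -0.041 to 0.072 (PGCC_LCL and PGCC). The block fits that left out a number in the PGCC comparisons and the block within each population were chosen after seeing the data.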
